A study of Homo sapiens with 4 samples.

Results

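The genes described here are those of the cytochrome P450 enzymes, the UDP-glucuronosyltransferases (UGT), the cytosolic sulfotransferases (SULT) and 6 partner genes, namely POR, CYB5A, EPHX1, EPHX2, NAT1 and NAT2. They were taken by gene symbol, and 63 of the 26603 genes in the table matched. The rule uses no measured value, but the members were chosen with earlier results of these data known. CYP1A1, CYP1B1, CYP2S1 and CYP51A1 were left out by the rule and appear only as a comparison. Messenger RNA of PLC8024, an established cell line of human liver cancer, was sequenced in a control group and a drug group of 2 libraries each. The drug, its dose and its duration are not named in the labels, which also do not say whether the libraries of a group came from separate cultures. The p-values therefore measure the spread between these libraries, which may be technical. The question the comparison answers is which of these transcripts differed between drug-treated and control cells.

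Cytochrome P450 enzymes are haem proteins of the endoplasmic reticulum and mitochondria that insert an oxygen atom into drugs, fatty acids, steroids and vitamins. The microsomal ones draw electrons from the reductase POR, helped by cytochrome b5 (CYB5A), and the mitochondrial ones draw them from ferredoxin (FDX1). Products are then opened by epoxide hydrolases or joined to glucuronic acid, sulfate or acetyl groups by UGT, SULT and NAT enzymes, and the liver is the main site of this chemistry. Many of the genes are driven in hepatocytes by nuclear receptors and liver transcription factors.

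Levels are given as FPKM, fragments scaled for exon length and library total, so they can be compared between genes. Recovered gene reads ranged from 28526098 to 40279560 per library. A gene was tested with limma on log2(FPKM + 1) where its mean reached 1 FPKM in a group, and a log2 difference on that scale understates the change of low genes. The threshold was an adjusted p under 0.05 (Benjamini-Hochberg over 11227 genes), and errors are the SD of 2 libraries for levels and the SE for log2 differences. Every gene in the table had a read in a control library (0 genes were at 0 in both), whereas 2073 genes were at 0 in both drug libraries. A gene read only in drug libraries was therefore not analysed here. In bulk RNA, fewer cells that express a gene and less of its RNA per cell cannot be told apart.

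With drug, 4 of the 17 tested enzyme genes fell and 0 rose, and 13 did not pass. CYP24A1, the vitamin D catabolic enzyme, and the fatty acid hydroxylase genes CYP4F22, CYP4F3 and CYP4F12 were the 4. CYP1A1, a P450 gene left out by the rule, rose (log2 2.89, limma adjusted p = 0.000649), so the count of 0 holds for the members only. Over all tested genes, 6.02% were called lower and 7.78% higher (13.8% in either direction). By edgeR's quasi-likelihood test on recovered reads of the same genes, 5 members were lower and 2 higher, against 11.0% and 8.37% of all genes (19.4% in either direction). CYP20A1 and CYB5A were the 2 higher ones there and UGT2B4 the added lower one. DESeq2 gave 5 lower and 1 higher (CYP20A1), against 10.1% and 7.03% of the 11009 genes to which it gave an adjusted p (17.1% in either direction). The choice of scaling moves the balance of all calls: 56.4% of limma's calls were higher, against 43.2% with TMM-scaled FPKM, 43.3% with edgeR and 41.1% with DESeq2. The 4 falls of members were called under each of these.

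The median log2 difference of the 17 tested members was -0.15, against 0.04 over all tested genes. Both drug libraries lay below both controls for 10 members and above them for 5, and the groups overlapped for POR and NAT1. SULT2B1, among the 10, was tested only because its control mean reached 1 FPKM. Over all tested genes 23.3% lay below and 40.3% above (63.5% without overlap). The summed level of all 63 genes was 149 FPKM in each control library, and 126 and 127 FPKM in drug libraries 1 and 2. CYP24A1 alone made up 28.3% and 30.4% of that sum in control and 23.0% and 23.7% in drug libraries. Without CYP24A1 the sums were 107 and 104 FPKM in control against 96.9 FPKM in each drug library.

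**Figure D1:**
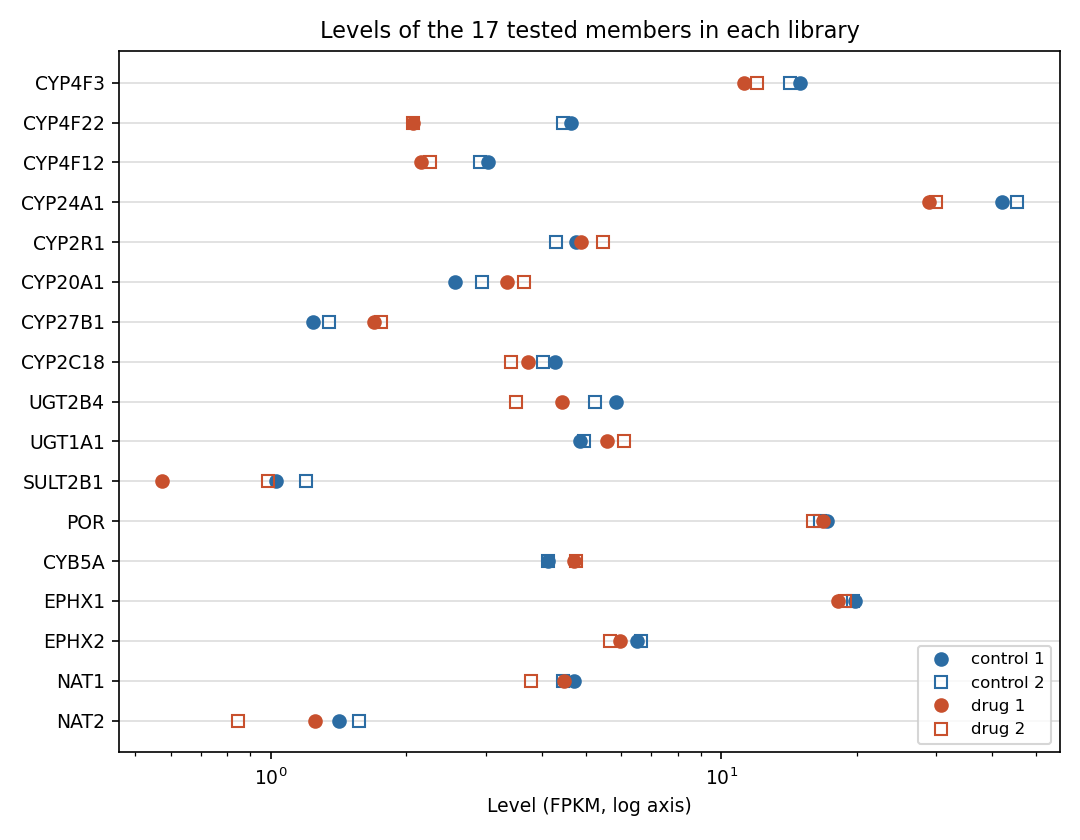
Level of each of the 17 tested enzyme genes (FPKM, log axis) in the 2 control and 2 drug libraries, 1 point per library, with genes grouped by role. CYP24A1 is the highest in every library, from 28.98 to 45.38 FPKM, and SULT2B1 lies around 1 FPKM.

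**Figure D2:**
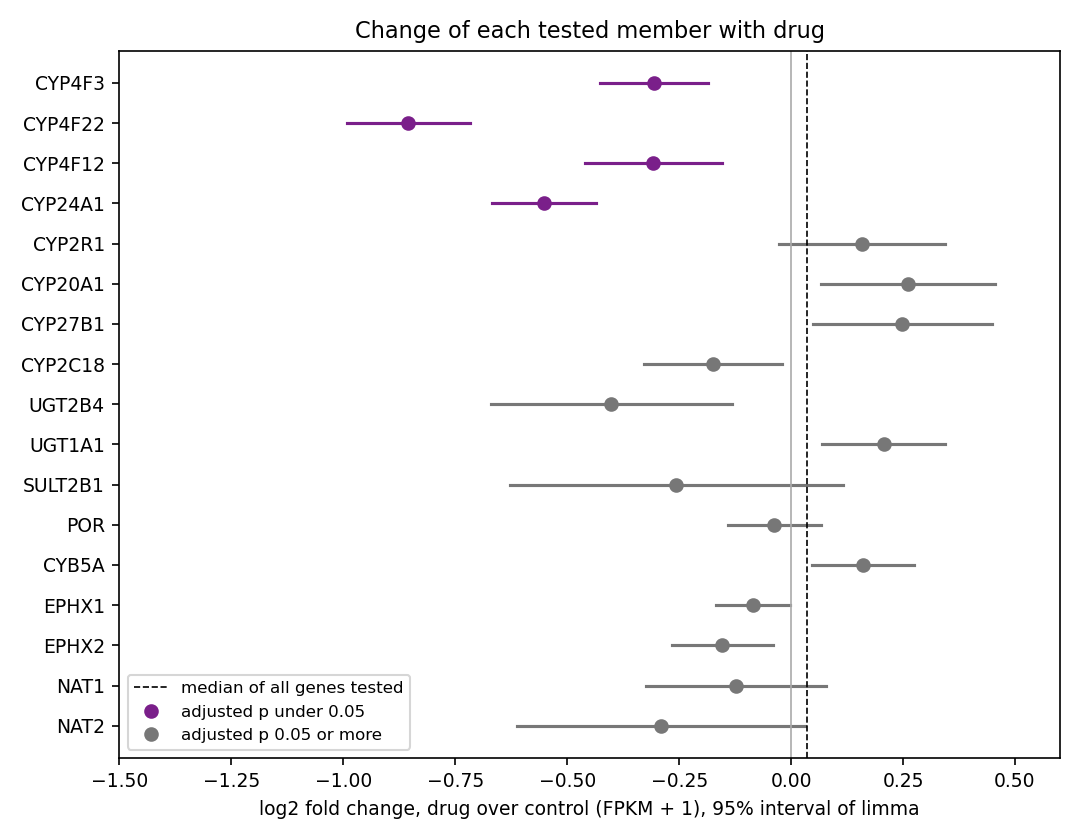
Log2 difference of drug over control (FPKM + 1) of each tested enzyme gene, with 95% intervals from limma. The 4 genes under the threshold all lie left of 0, from CYP4F22 at -0.85 to CYP4F3 at -0.31, and the intervals of POR, NAT1, NAT2, CYP2R1 and SULT2B1 cross 0.

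Of all genes tested 6.02% were called lower and 7.78% higher, with a median log2 difference of 0.04. Among the P450 genes of steroids, bile acids, vitamin D and retinoids, 4 of 13 were tested, 1 fell and 0 rose, with a median log2 difference of 0.20. That class as written, and so its median, includes CYP20A1, whose substrate is not settled. The one that fell was CYP24A1 (chr20:54153449-54173973, minus strand, GRCh38), a mitochondrial P450 that starts the breakdown of vitamin D hormone. It was read at 42.06 and 45.38 FPKM in control against 28.98 and 30.01 in drug libraries. Both drug values lay well under both controls. The group means were 43.7 ± 2.35 and 29.5 ± 0.729 FPKM (SD, n = 2 each), 1.48-fold lower with drug. The log2 difference was -0.55 ± 0.04 (limma, adjusted p = 0.00476), and the gene remained called under all 13 alternatives, with a highest adjusted p of 0.0360. No exon 50-mer of CYP24A1 was shared with another gene.

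The enzyme that opposes CYP24A1 is CYP27B1, which makes the active vitamin D hormone. It was read at 1.24 and 1.35 FPKM in control against 1.69 and 1.76 in drug libraries, so both drug values lay above both controls. Its log2 difference of 0.25 ± 0.08 did not pass (limma, adjusted p = 0.0987), and it overlaps METTL1 on the same strand. The ratio of CYP24A1 to CYP27B1, which was not among the planned results, was 34.0 and 33.7 in control against 17.1 in each drug library. CYP2R1, the liver enzyme of the earlier vitamin D hydroxylation, had 4.77 and 4.29 FPKM in control against 4.88 and 5.47 in drug libraries. It did not pass (log2 0.16, limma adjusted p = 0.199). The vitamin D receptor gene VDR stayed between 0.0730 and 0.128 FPKM in the 4 libraries, below the level tested. CYP20A1, a P450 without a settled substrate, was at 2.57 and 2.95 FPKM in control against 3.35 and 3.65 in drug libraries. Its groups did not overlap, but limma did not call it (log2 0.26 ± 0.08, adjusted p = 0.0839), whereas edgeR (adjusted p = 0.0246) and DESeq2 (0.0125) did.

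Over all tested genes 6.02% were called lower. In the class of fatty acid and eicosanoid P450 genes 3 of 8 were tested and all 3 fell, with a median of -0.31. These are CYP4F22, CYP4F3 and CYP4F12, which place a hydroxyl group at the far end of a fatty acid chain. CYP4F22, which acts on very long chains for skin ceramides, was read at 4.64 and 4.46 FPKM in control against 2.07 in each drug library. That is 2.20-fold lower and the largest fold fall of a tested member (log2 -0.85 ± 0.05, limma adjusted p = 0.00249). It was called under all 13 alternatives, and the recovered reads were 346 and 450 in control against 218 and 209 in drug libraries. CYP4F3, known for ending leukotriene signals, was read at 15.0 and 14.2 FPKM in control against 11.2 and 12.0 in drug libraries. Both drug values were again below both controls (1.26-fold, log2 -0.31 ± 0.05, limma adjusted p = 0.0200). CYP4F12, which oxidises arachidonic acid and some antihistamines, had 3.03 and 2.91 FPKM in control against 2.16 and 2.25 in drug libraries. The groups did not overlap (1.35-fold lower, log2 -0.31 ± 0.06, limma adjusted p = 0.0348).

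Without control library 1 the adjusted p of CYP4F3 was 0.0955, without control library 2 it was 0.0691, without drug library 1 it was 0.0752, and without drug library 2 it was 0.0484. CYP4F12 lost its call on leaving out any of the 4 libraries (limma, adjusted p from 0.109 to 0.146). With the replicate number as a block they had adjusted p of 0.0519 and 0.0733. Summed over all members of the subfamily, CYP4F levels were 22.8 and 21.8 FPKM in control against 15.6 and 16.4 in drug libraries.

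The CYP4F genes sit side by side on chromosome 19, in 490.5 kb from chr19:15508493 to chr19:15999020 (GRCh38, GENCODE 29), which holds 11 annotated CYP4F genes, 6 of them protein coding. Of those 6, 5 had a row in the table, and in all 5 both drug libraries had a lower FPKM than both controls. Of these only CYP4F22, CYP4F3 and CYP4F12 were tested. Over all tested genes 23.3% had both drug libraries below both controls. That share does not cover genes as low as CYP4F2 and CYP4F11, which were not tested and rest on few reads. A gene read only in drug libraries had no row, so having a row favours low genes that are higher in control. CYP4F2, the vitamin K and fatty acid hydroxylase of the liver, had 6 and 3 reads in control and 1 and 2 in drug libraries. CYP4F11 had 12 and 20 reads in control and 14 and 6 in drug libraries, or 0.113 and 0.139 FPKM against 0.0933 and 0.0416. Within 500 kb of the cluster 15 other genes were tested, of which 1 was higher (TPM4) and 2 were lower (SLC1A6 and UCA1), with a median log2 difference of 0.04. UCA1, a long noncoding RNA gene that lies inside the cluster, went from a mean of 87.7 to 42.5 FPKM, 2.06-fold lower against 2.20-fold for CYP4F22 (log2 -1.03, limma adjusted p = 0.000523). These 2 lower neighbours and TPM4 are named after their values were seen. Of the exon 50-mers of CYP4F3 8.64% also occur in another gene, mostly CYP4F2, against 1.97% for CYP4F12 and 0 for CYP4F22, so some reads of CYP4F2 and CYP4F3 could be exchanged in counting.

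**Figure D3:**
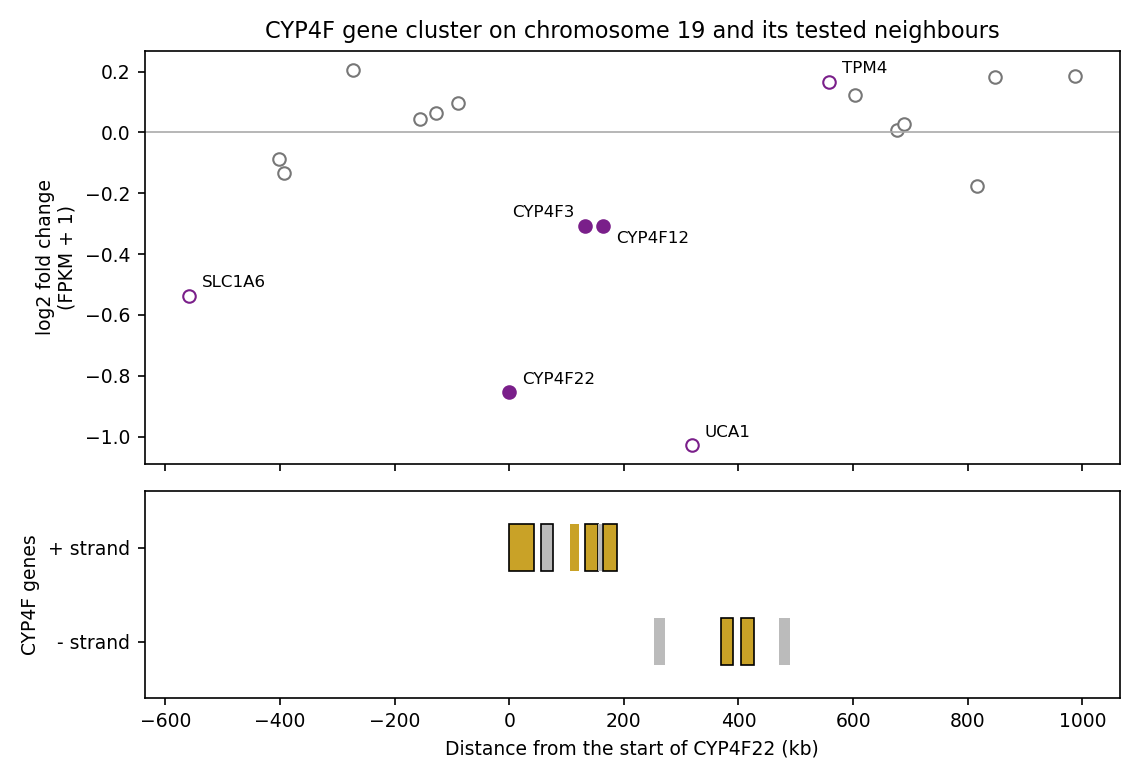
Upper part: the log2 difference (FPKM + 1) of each tested gene within 500 kb of the cluster against distance in kb from the start of CYP4F22, as filled points for the 3 CYP4F genes (all called), open purple points for the 3 called neighbours and open grey points for neighbours not called. Lower part: the CYP4F genes on the same axis by strand, protein-coding genes in gold and pseudogenes in grey, with a black edge for genes in the table. The CYP4F genes and UCA1 lie below 0 while most neighbours lie near 0.

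To show the DNA beside the 2 CYP4F genes with a promoter in the RefSeq table (GRCh38.p14), the bases upstream of the annotated start are printed here 5′ to 3′ on the plus strand, ending before the nearest GENCODE exon. CYP2B6, described further on, is printed with them because it had the largest ratio of drug to control among members kept by the read-count test. Capitals in CYP4F22 (chr19:15508275-15508492) mark the letters GCGTG, the core of the aryl hydrocarbon receptor element, on the minus strand. Capitals in CYP4F3 (chr19:15641062-15641293) mark a repeat of 22 bases. Capitals in CYP2B6 (chr19:40991032-40991249) mark AGGTCA and, on the minus strand, AGGTGA, hexamers to which nuclear receptors bind.
CYP4F22: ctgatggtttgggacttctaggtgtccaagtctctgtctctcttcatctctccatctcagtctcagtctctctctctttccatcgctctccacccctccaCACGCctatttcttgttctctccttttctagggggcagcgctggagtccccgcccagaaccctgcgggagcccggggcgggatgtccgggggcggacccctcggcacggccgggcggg
CYP4F3: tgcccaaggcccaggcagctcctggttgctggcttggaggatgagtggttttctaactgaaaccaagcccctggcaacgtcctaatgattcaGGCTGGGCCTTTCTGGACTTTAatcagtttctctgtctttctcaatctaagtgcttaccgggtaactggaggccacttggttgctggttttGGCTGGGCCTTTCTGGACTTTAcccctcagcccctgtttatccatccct
CYP2B6: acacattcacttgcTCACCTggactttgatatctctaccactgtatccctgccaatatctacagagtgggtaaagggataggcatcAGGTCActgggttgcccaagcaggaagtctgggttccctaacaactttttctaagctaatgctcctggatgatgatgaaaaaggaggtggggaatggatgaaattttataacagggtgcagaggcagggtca

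In CYP4F22 the GCGTG match starts 150 bases upstream of the RefSeq start, and 32.2% of 35116 RefSeq promoters hold these letters on either strand within 250 bases. In CYP4F3 the copies of the repeat start 158 and 67 bases upstream, and 1.25% of all promoters hold a direct repeat of at least 22 bases. This CYP4F3 window lies in an intron of longer GENCODE transcripts of the gene. In CYP2B6 AGGTCA starts 164 and AGGTGA 236 bases upstream. The GC content of the full 250 bases was 63.2% for CYP4F22, 50.8% for CYP4F3 and 48% for CYP2B6, against a median of 58% over all promoters. Of the 63 genes 44 had an entry, with 59 promoters in all. Among those, AGGTCA (searched on both strands, like all motifs here) was in 23.7% against 12.1% of all promoters, AGGTGA in 16.9% against 13.7%, and GGTTCA in 11.9% against 7.16%. TATAAA was in 25.4% against 10.7%, CCAAT in 49.2% against 32.0%, and GCGTG in 18.6% against 32.2%. AGGTGA differs from AGGTCA at a base, and the other motifs do not contain each other. Most of these promoters belong to members below the level tested. Of the 13 promoters of tested members 1 held AGGTCA, 0 AGGTGA, 2 GGTTCA, 1 TATAAA, 6 CCAAT and 5 GCGTG. These are matches of letters and no measure of binding.

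Of the P450 genes in the drug-metabolising families, CYP1 to CYP3, 17 were members and only CYP2C18 and CYP2R1 reached the level tested. Neither passed. The 17 were all CYP2 and CYP3 genes, and CYP1A1, CYP1B1 and CYP2S1 of these families were left out by the rule. Of those, CYP1A1 rose (log2 2.89, limma adjusted p = 0.000649). CYP2S1, at 8.75 and 9.11 FPKM in control against 9.80 and 9.97 in drug libraries, did not pass (limma adjusted p = 0.0826). CYP2C18, which belongs to the drug-metabolising subfamily CYP2C, was read at 4.28 and 4.02 FPKM in control against 3.72 and 3.41 in drug libraries (log2 -0.17 ± 0.06, limma adjusted p = 0.117). Of its exon 50-mers 36.6% are shared with AL583836.1, an overlapping gene on the same strand, so its level is uncertain. The main drug-metabolising P450 genes of adult liver were low: CYP3A4 had between 2 and 14 reads per library, CYP2D6 between 1 and 9, and CYP2E1 between 59 and 90. CYP3A5, the highest member below the level tested, was at 0.721 and 0.602 FPKM in control against 0.870 and 0.793 in drug libraries. Its groups did not overlap, and edgeR on genes kept by its own count filter did not call it (adjusted p = 0.229).

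CYP2B6, an enzyme known for its induction by drugs through the receptors encoded by NR1I2 and NR1I3, lay below the level tested with limma. It had 12 and 9 reads in control and 40 and 57 in drug libraries, or 0.113 and 0.0624 against 0.266 and 0.395 FPKM. Both drug values were above both controls, with a ratio of means of 3.77. With edgeR on the genes kept by its filterByExpr filter, which tested 39 members among 16559 genes, CYP2B6 passed as higher (log2 1.91, adjusted p = 0.0148). The call was kept in 3 of its 5 alternatives. It was lost without control library 2, and with limma on all genes with no filter on low values, where 0 members were called higher. The authors' deposited table lists it with a log2 fold change of 1.91 and an adjusted p of 0.0176. Of its exon 50-mers 8.36% also occur in another gene, mostly its pseudogene CYP2B7P. CYP2B6 is named here after its values were seen. The genes of its receptors were low, with NR1I3 at 0.529 and 0.662 FPKM in control against 0.780 and 0.645 in drug libraries, and NR1I2 at 0.0260 FPKM or less in each.

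By that edgeR test 2 members were higher (CYP2B6 and CYP20A1) and 6 lower, against 5.76% and 7.22% of the 16559 genes tested (13.0% in either direction). The lower ones were CYP24A1, CYP4F22, CYP4F3, CYP4F12, UGT2B4 and SULT1B1. The authors' deposited table has 7 members with an adjusted p under 0.05, of which CYP20A1 and CYP2B6 are listed as higher. Of all genes in it 7.21% passed, 3.18% as higher and 4.03% as lower.

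Of the 12 UGT genes, which attach glucuronic acid to bilirubin, bile acids, steroids and drugs, 2 were tested, and neither passed with limma. UGT2B4, a bile acid and steroid conjugating enzyme, was read at 5.84 and 5.23 FPKM in control against 4.44 and 3.50 in drug libraries. Its groups did not overlap, but the drug libraries were farther from each other than drug library 1 was from the nearer control (log2 -0.40 ± 0.11, limma adjusted p = 0.0683). It was called by edgeR (adjusted p = 0.0315) and DESeq2 (0.00821), with the replicate block (0.0421) and without drug library 1 (0.0488). UGT1A1, the bilirubin conjugating enzyme, lay on the other side, at 4.86 and 4.96 FPKM in control against 5.57 and 6.08 in drug libraries (log2 0.21 ± 0.05, limma adjusted p = 0.0666). The ratio of UGT2B4 to UGT1A1, which was not among the planned results, was 1.20 and 1.06 in control against 0.796 and 0.575 in drug libraries. UGT1A1 shares its later exons with 8 other UGT1A genes on the same strand, and 49.4% of its exon 50-mers occur in them too, so its level is uncertain as that of UGT1A1 alone. The other UGT1A genes with a row were listed with at most 14 reads in a library.

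The SULT genes, whose enzymes transfer sulfate to steroids, phenols and thyroid hormones, were low: 1 of 10 was tested and it did not pass. SULT2B1, a cholesterol sulfotransferase, was at 1.03 and 1.20 FPKM in control against 0.574 and 0.986 in drug libraries (log2 -0.26 ± 0.15, limma adjusted p = 0.283). SULT1B1, which sulfates thyroid hormone, had 26 and 32 reads in control and 9 and 14 in drug libraries, so both drug values lay below both controls. edgeR on genes kept by filterByExpr called it lower (log2 -1.60, adjusted p = 0.0354). It lost that call without control library 1, control library 2 or drug library 1, and with limma on all genes with no filter on low values. The authors' deposited table gives it an adjusted p of 0.112. SULT1B1 too is named after its values were seen. Of its exon 50-mers 9.12% occur in another gene.

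The partner genes were all expressed, and 0 of 6 passed, with a median log2 difference of -0.10. POR, the electron donor of every microsomal P450, was read at 17.2 and 16.5 FPKM in control against 16.8 and 16.0 in drug libraries. The groups overlapped, and the 95% interval of its log2 difference ran from -0.14 to 0.07 (limma, adjusted p = 0.566). CYB5A, the helper electron carrier, had 4.12 and 4.13 FPKM in control against 4.70 and 4.75 in drug libraries. Its groups were tight and apart, yet the log2 difference of 0.16 ± 0.04 did not pass with limma (adjusted p = 0.0756) and passed narrowly with edgeR on the same genes (0.0481). EPHX1, the epoxide hydrolase for xenobiotics, was the highest partner at 19.8 and 19.6 FPKM in control against 18.2 and 18.8 in drug libraries (log2 -0.09, limma adjusted p = 0.141). EPHX2, which opens fatty acid epoxides, was at 6.51 and 6.63 FPKM in control against 5.96 and 5.66 in drug libraries (log2 -0.15, limma adjusted p = 0.0816). The arylamine acetyltransferase genes NAT1 (log2 -0.12, limma adjusted p = 0.336) and NAT2 (-0.29, 0.182) did not pass either.

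Below the level tested lay 46 of the 63 members, with a highest group mean of 0.831 FPKM (CYP3A5) against 1.11 FPKM for SULT2B1, the lowest member tested. Of the 46, 38 had at most 50 reads in every library and 32 at most 20. For 13 of them at least 1 library held 0 reads. CYP2F1, SULT4A1, UGT1A5 and UGT1A8 had 0 reads in both drug libraries, but only 2 in control, under a floor of 3 reads, so no fold is given. Over all genes 65.0% to 70.1% of values of 1 to 10 reads in a library were even numbers, and reads at this level may not be independent counts of molecules. What makes them even was not tested, and the edgeR calls of CYP2B6 and SULT1B1 rest in part on such low values.

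**Figure D4:**
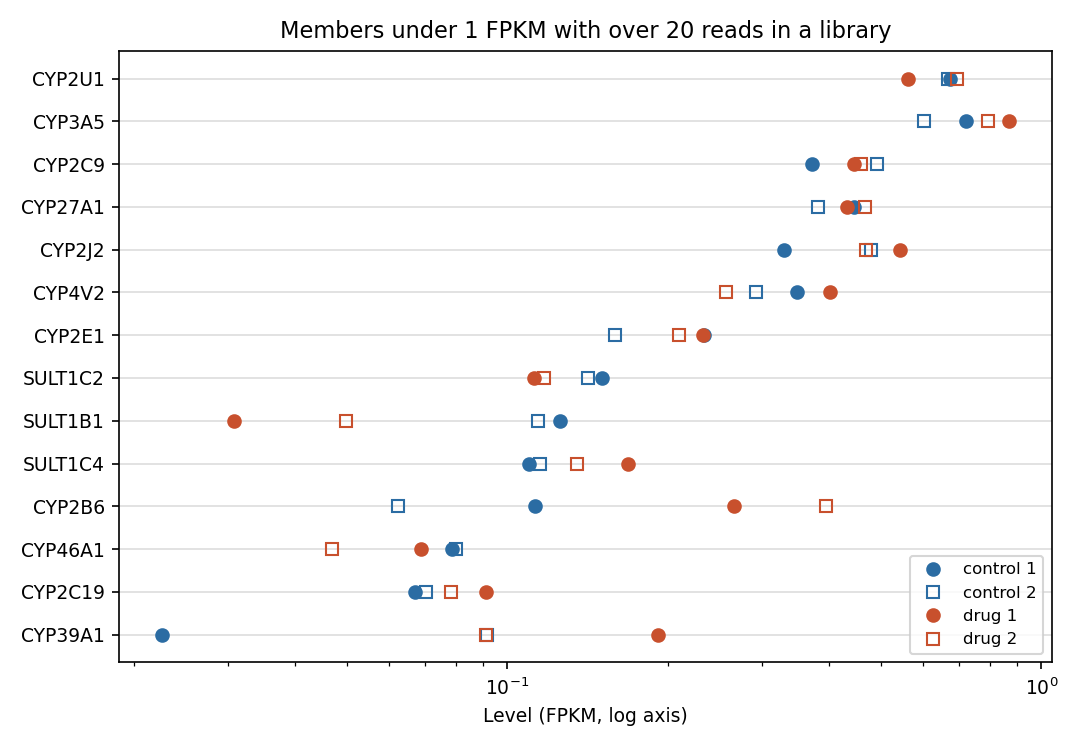
Level (FPKM, log axis) of the 14 members below the level tested with over 20 reads in a library, with 1 point per library. CYP2B6 has both drug libraries to the right of both controls (0.266 and 0.395 against 0.113 and 0.0624 FPKM), and SULT1B1 has both to the left.

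Other genes of the pathway were counted from lists written by function. Over all tested genes 7.78% were called higher and 6.02% lower. Of 23 receptors and liver factors 17 were tested, 5 rose and 2 fell, with a median log2 difference of 0.04. The glucocorticoid receptor gene NR3C1 rose from 17.7 and 18.6 to 24.3 and 24.1 FPKM (log2 0.40, limma adjusted p = 0.00588). CEBPA, NR5A2, FOXA2 and HNF4A, which encode liver transcription factors, rose by log2 0.29, 0.24, 0.22 and 0.18. The bile acid receptor gene NR1H4 fell from 2.86 and 2.53 to 1.12 and 1.05 FPKM (log2 -0.82, limma adjusted p = 0.00734), and PPARA, a fatty acid sensor, fell by 0.24 on the log2 scale (adjusted p = 0.0482). CEBPB was the highest of the list, between 44.5 and 46.3 FPKM. AHR, the receptor that drives CYP1A1, was at 9.58 and 10.1 FPKM in control against 9.97 and 10.3 in drug libraries (log2 0.04, limma adjusted p = 0.550), with overlapping groups.

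The lists that follow stand beside the same shares of all tested genes, 6.02% called lower and 7.78% higher. In haem synthesis and breakdown 13 of 14 genes were tested, 1 fell (BLVRB, a biliverdin reductase, log2 -0.27) and 0 rose, with a median of -0.01. PGRMC1, a haem-binding partner of P450 enzymes, was the highest at 90.9 to 95.7 FPKM. Of the electron transfer partners 9 of 11 were tested and 1 fell, FDX1, the ferredoxin that serves mitochondrial P450 enzymes such as CYP24A1 and CYP27B1. It went from 22.8 and 22.3 to 18.1 and 18.3 FPKM (log2 -0.29, limma adjusted p = 0.00800). FDXR, the reductase that feeds it, did not pass (log2 0.01, adjusted p = 0.898), and NQO1 was the highest of that list at 102 to 111 FPKM. All 15 genes of cofactor supply were tested and 1 fell, BPNT1, which clears the spent sulfate donor (log2 -0.14, limma adjusted p = 0.0331). UGDH, which makes the glucuronic acid donor, led that list at 59.1 to 63.0 FPKM.

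Among the other enzymes of oxidation and hydrolysis 14 of 41 genes were tested, 6 fell and 0 rose, with a median of -0.22. Over all tested genes 6.02% were called lower and 7.78% higher. ALDH2, the acetaldehyde dehydrogenase, fell from 25.5 and 25.0 to 16.7 and 16.8 FPKM (log2 -0.56, limma adjusted p = 0.00154). ALDH1A1, a retinal dehydrogenase and the highest of the list, fell from 459 and 458 to 364 and 350 FPKM (log2 -0.36, limma adjusted p = 0.00475). ADH6 and PON3 fell by 0.35 and 0.27 on the log2 scale, and ADH5 and CBR1 were the other 2. Of the other conjugating enzymes 6 of 20 were tested and 1 fell, the nicotinamide methyltransferase gene NNMT (log2 -0.60, limma adjusted p = 0.0200), while MGST1 (24.8 to 27.2 FPKM) and TPMT (29.5 to 30.4) did not pass. Of the 4 P450 genes outside the rule 3 were tested and 1 rose, CYP1A1, from 3.13 and 3.67 to 29.4 and 33.9 FPKM (log2 2.89, limma adjusted p = 0.000649). CYP2S1 and CYP51A1 did not pass. CYP1B1, below the level tested, had 12 and 22 reads in control and 79 and 93 in drug libraries, and edgeR on genes kept by filterByExpr called it higher (log2 2.08, adjusted p = 0.00128). Of the 18 genes called in these lists NR3C1, ALDH2, ALDH1A1 and CYP1A1 were called without each library in turn. The other 14 lost the call without at least 1 library, 13 of them without control library 1 and 10 without each of the other 3.

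**Figure D5:**
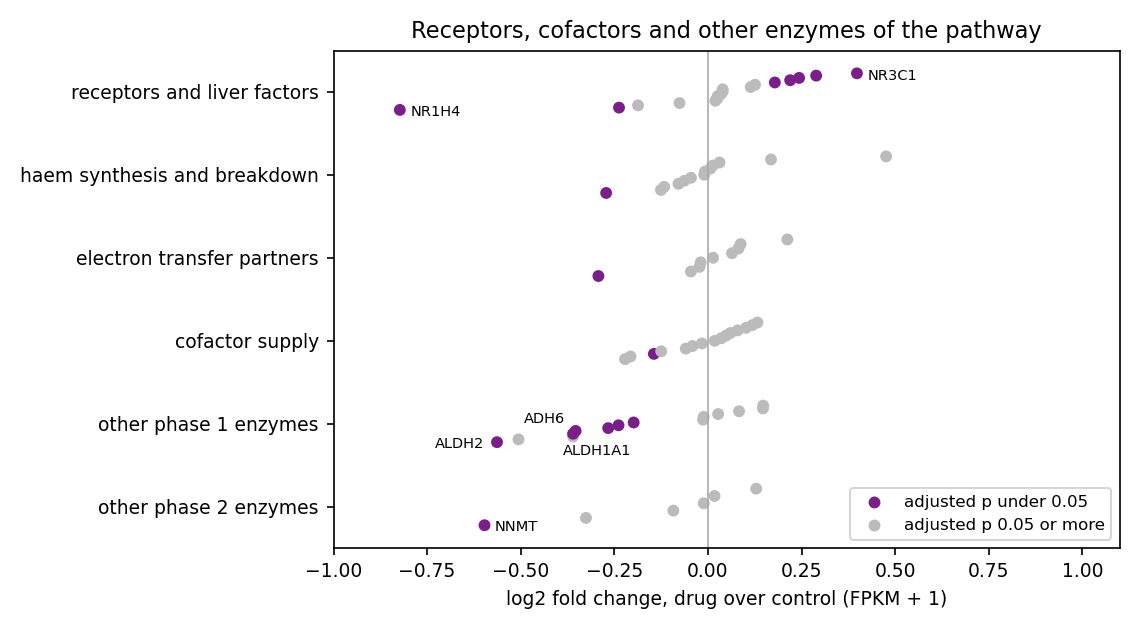
Log2 difference of drug over control (FPKM + 1) of each tested gene in 6 lists of receptors, cofactors and other enzymes, with purple points for an adjusted p under 0.05 by limma. Called points lie on both sides of 0 among the receptors (NR3C1 at 0.40, NR1H4 at -0.82) and only left of 0 in the other lists.

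Markers were read in the same libraries, where 6.02% of all tested genes were called lower and 7.78% higher. Of 10 hepatocyte markers 8 were tested, 6 fell, 1 rose (HNF4A, also among the liver factors) and SERPINA1 did not pass (log2 0.01, limma adjusted p = 0.918). Their summed level was 731 and 726 FPKM in control against 448 and 427 in drug libraries. FGB, a fibrinogen chain, was the highest and fell from 556 and 549 to 295 and 274 FPKM, and the other 9 markers summed to 175 and 177 in control against 153 and 152 FPKM in drug libraries. ALB was at 3.15 and 3.23 against 1.31 and 1.32, and APOB and TTR were at 0.0384 FPKM or less. The liver cancer marker GPC3 fell from 108 and 110 to 82.7 and 77.7 FPKM, while AFP was between 0.372 and 0.449. Of the markers of other cell types, the 5 fibroblast markers summed to 0.640 and 0.605 FPKM in control against 1.06 and 1.02 in drug libraries. Each was below the level tested, and edgeR on genes kept by filterByExpr called PDGFRB higher (adjusted p = 0.0167) and COL1A1 lower (0.0442). The endothelial genes VWF and CDH5 were at 0.0431 FPKM or less. PECAM1 fell from 4.66 and 4.11 to 2.09 and 2.23 FPKM (log2 -0.77, limma adjusted p = 0.00669). Of the blood markers only LYZ had a row, and it rose from 181 and 183 to 283 and 287 FPKM (log2 0.64, limma adjusted p = 0.000841). The cholangiocyte markers summed to 3.28 to 3.68 FPKM but did not move together. KRT7, below the level tested, had 5 and 7 reads in control and 24 and 28 in drug libraries. edgeR on genes kept by filterByExpr called it higher (log2 1.83, adjusted p = 0.0381). KRT19 (log2 -0.37, limma adjusted p = 0.1299) and SOX9 (0.18, 0.187) did not pass, and the groups of EPCAM overlapped. The part of these markers in the falls of CYP24A1 and the CYP4F genes was not tested.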

How the data were processed

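RNA of 2 control and 2 drug libraries was measured by sequencing after a stranded mRNA preparation, per the labels' protocols. The submitters' processing notes name bcl2fastq and the build hg38. Aligner, counter and annotation are not stated in the sources used here. The deposited per-library values are FPKM, a unit the header does not name and the values show. The deposited group columns are a signal, the mean of normalized counts scaled by size factors. Per the file headers, the log2 fold changes, p-values and adjusted p-values were made by the authors. Names tied columns to samples, and 0 per-sample columns were left unused.

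FPKM and group means gave back whole reads, 100% of values lying within 0.1 read of a whole number. The recovery and the main limma fit were each run on simulated libraries. Those runs did not cover edgeR or DESeq2 on recovered reads, nor changes as small as those of CYP4F3 and CYP4F12. Totals were 28526098 and 38611635 reads in control and 40279560 and 38685856 in drug libraries. The depth limits the members with few reads, and counting noise is only part of their error.

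The main test was limma 3.58.1 (trend) on log2(FPKM + 1), for genes whose mean reached 1 FPKM in either group. Alternatives were pseudocounts of 0.1 and 0.01, no filter, at least 2 FPKM, TMM-scaled FPKM, edgeR 4.0.16 and DESeq2 1.42.0 on the recovered reads, leaving out each library, and a replicate block. edgeR on genes kept by filterByExpr, also without each library, was added after the data were seen. The members and gene lists were chosen with earlier results of these data known. Every tested member could be named, with values by library for those called or highest in their class, and from each list up to 4 called genes a direction and its highest gene. Values by library of other members, HNF4A among the receptors, ADH5, CBR1, AHR, VDR, NR1I2, NR1I3, FDXR, MGST1, TPMT, the genes near the CYP4F cluster, CYP1B1, CYP2S1, CYP51A1 and some markers fall outside this rule and were chosen after their values were seen. Names and positions are from GENCODE 29 (61 of 63 members matched) and promoters from RefSeq (GRCh38.p14). CYP2J2, CYP2U1 and CYP2R1 count in 2 classes. Computation used Python 3.11.15 (pandas 2.3.3, numpy 2.4.6, matplotlib 3.10.9) and R 4.3.3.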

Additional observations from a re-analysis of the deposited data

How the results depend on the processing

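CYP24A1 and CYP4F22 were called lower under all 13 alternatives, and no alternative reversed a tested member. Of 218 alternative values of tested members 198 kept direction and side of the threshold, 9 passed newly and 11 no longer passed. The 11 belong to CYP4F3 and CYP4F12, which were called in 8 and 7 of their 13 alternatives, and the cause was not tested. The count of members called higher, 0 with limma, was 2 with edgeR, 1 with DESeq2 and 2 with edgeR on genes kept by filterByExpr. The count called lower, 4, was 2 with no filter on low values, where 26603 genes were tested, and ran from 2 to 3 on leaving out a library: it was 2 without control library 1 or control library 2 and 3 without drug library 1 or drug library 2. Of all genes 873 were called higher, and this was 170 with no filter, 549 with TMM-scaled FPKM, 474 with the replicate block and 115 to 221 on leaving out a library. The 676 called lower became 214 with no filter, 1233 with edgeR, 1109 with DESeq2, 1195 with edgeR on genes kept by filterByExpr, and 188 to 274 on leaving out a library, where the lone sample is assumed to vary like the other group. The labels give no pairing: deviations of libraries with the same number correlated at 0.0278 over 11227 genes. With the replicate number as a block 3 members were lower (CYP24A1, CYP4F22 and UGT2B4) and 0 higher. NAT2, CYP27B1 and SULT2B1 gave no value at a minimum of 2 FPKM. Depth limits what can be said of the 38 members with at most 50 reads in every library.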
